A study of Macaca mulatta with 20 samples.

Results

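Caloric restriction (CR) was compared with a control diet (Control) in liver biopsies of rhesus monkeys (Macaca mulatta) taken after 2 years on the diet. The comparison used the year 2 library of each of 10 animals, out of 20 libraries in the study: CR animals 004, 007, 008, 011 and 012 and Control animals 001, 005, 006, 009 and 010. No animal is in both groups, so the comparison is unpaired. The other 10 libraries come from biopsies of the same animals at enrolment, before the diets (year 0), and are used here only beside the year 2 values. The labels give the diet and the year of each library. They give neither sex, age, degree of restriction nor fasting state, and no sequencing batch. The question was which liver RNAs differ between animals under CR and animals on the control diet at the end of this period.

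Caloric restriction is a lowered intake of energy without malnutrition. In the fasting liver, glucagon, cortisol and fatty acids turn on gluconeogenesis, fatty acid oxidation and ketone body synthesis through factors such as PPARA and PPARGC1A, while falling insulin lets the lipid synthesis program of SREBF1 subside. Cholesterol synthesis is set by SREBF2, which is activated when sterols in the endoplasmic reticulum run low. The liver also holds macrophages (Kupffer cells), endothelial cells, stellate cells and blood, all of which give RNA to a biopsy.

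Before any gene, 2 Control libraries stood apart from the other 8. Albumin RNA took 15.5%, 14.5%, 15.8%, 13.9% and 13.8% of all counts in CR animals 004, 007, 008, 011 and 012, against 8.57%, 10.9%, 11.3%, 5.42% and 14.04% in Control animals 001, 005, 006, 009 and 010. Thus 4 of the 5 Control libraries lay below every CR library, and Control 009 was the lowest. The means were 14.7% ± 0.887 in CR and 10.0% ± 3.23 in Control (SD, n = 5 each), with a two-sided exact permutation p of 0.0238, or 0.119 adjusted over the 5 library measures tested. The smallest p that 5 against 5 animals can give is 0.00794. In bulk tissue, fewer cells of a type and less RNA per cell cannot be told apart. On the first principal component, Control 009 and Control 001 lay at 117 and 46.8. On the second they lay at opposite ends, at -43.2 and 88.8, so they were not alike. They correlated less with the rest in log2 CPM (counts scaled by library size), with a median of 0.842 and 0.895. The other 8 reached 0.948 or more. Control 009 was also the shallowest library, with 15421789 counts of up to 30204971. Results below are therefore given with all 10 libraries, and many of them also without Control 001 and 009. A value given only with all 10 libraries may still depend on these 2. No label separates these 2 animals from the other Control animals. They were set aside after these same data showed them apart, so p-values without them do not hold their stated error rate.

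**Figure D1:**
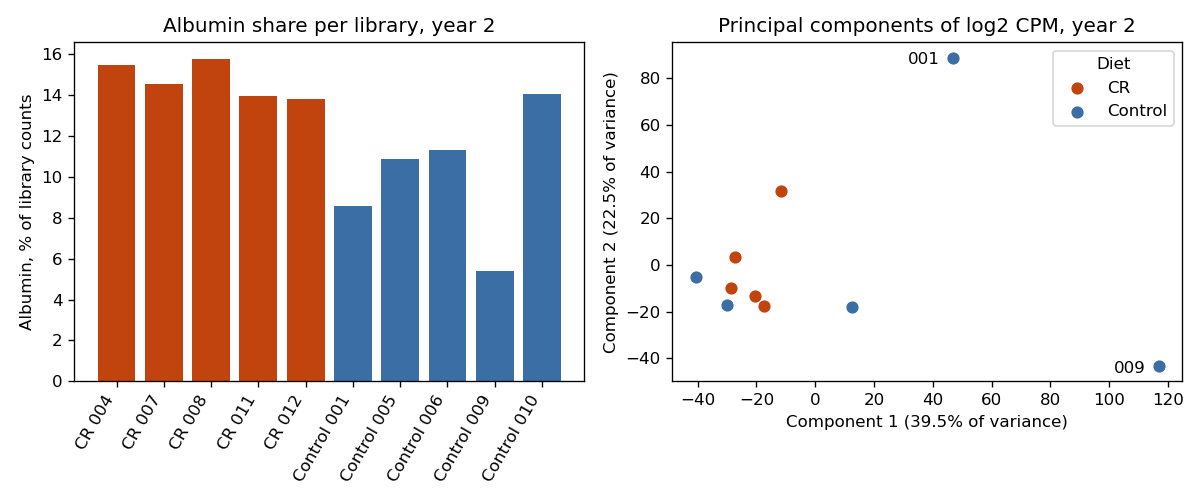
Left, the share of each library's counts that came from albumin (%), CR libraries first and Control libraries after them. Right, the first and second principal components of log2 CPM of the 10 year 2 libraries, with the percent of variance on the axes; Control 001 and 009 lie apart from the other 8, which include all 5 CR libraries.

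The groups also differed in how much their animals varied. The SD of log2 CPM over the animals of a group had a median over genes of 0.28 in CR and 0.62 in Control, and was larger in Control for 85.2% of genes. Without Control 001 and 009 the Control median was 0.30, and the SD was larger in the remaining 3 Control libraries for 51.7% of genes. The larger spread in Control came with these 2 libraries. They were chosen because they lay apart, so leaving them out was bound to lower the Control spread. No CR library was left out to match.

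At year 2, edgeR's quasi-likelihood test with Benjamini-Hochberg adjustment called 0 (0%) of the 13345 genes tested, at an adjusted p under 0.05, and the smallest adjusted p was 0.659. At an unadjusted p under 0.05 there were 938 genes (7.03%), of which 153 were higher (1.15%) and 785 lower (5.88%) in CR. The CR and Control values did not overlap in 102 genes (0.764%), 48 higher (0.36%) and 54 lower (0.405%) in CR. Of the 785 lower genes, 542 (69.0%) had their highest value of all 10 libraries in Control 009 and 197 (25.1%) in Control 001. Over all genes tested, these libraries held the highest value in 28.1% and 21.9%. Those genes include many with their highest value in a CR library, whereas 0 of the 785 had it there. The shares over all genes are therefore no matched baseline, and no excess is read from them. Without both, 445 of 13535 genes (3.29%) had an unadjusted p under 0.05, now 222 higher (1.64%) and 223 lower (1.65%), and edgeR called 2 (0.0148%), CEP57L1 and LYPD6B. Without Control 009 alone 0 genes were called and 444 had an unadjusted p under 0.05. DESeq2 called 11 of 16325 genes (0.0674%), 2 higher and 9 lower. Limma on TPM and limma voom with a weight per library called 0, with 305 and 679 genes at an unadjusted p under 0.05.

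The genes with the smallest p and a mean of at least 1 CPM are described first, 6 in each direction. All 12 had an adjusted p of 0.659 by edgeR, so none of them passed the test. CEP57L1, a relative of the centrosomal protein CEP57, had 6.67, 6.27, 6.87, 4.45 and 4.59 CPM in CR animals (in the order 004, 007, 008, 011 and 012), against 7.09, 19.3, 18.4, 52.1 and 18.1 CPM in Control animals (in the order 001, 005, 006, 009 and 010, here and below). Every CR value lay below every Control value, but Control 001 (7.09 CPM) was close to the highest CR animal (6.87 CPM). The log2 difference was -2.00 ± 0.43 (SE), or -1.68 ± 0.18 without Control 001 and 009, where its adjusted p was 0.036; DESeq2 gave an adjusted p of 0.022 with all libraries. At year 0, CEP57L1 was at 0.93 ± 0.20 on the same scale. The diet difference at year 2 minus that at year 0 was called by edgeR in CEP57L1 alone, and there without Control 001 (-3.18, adjusted p = 0.0144) or without both (-2.63, adjusted p = 0.0104). These calls, and that at year 2 by edgeR, leave out Control 001, the Control library closest to CR.

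MLPH (melanophilin), which links Rab-coated vesicles to myosin motors, had 24.5, 22.2, 22.3, 20.7 and 27.1 CPM in CR animals, against 38.8, 47.1, 47.1, 67.9 and 31.7 CPM in Control animals. The groups did not overlap, with a log2 difference of -0.99 ± 0.22, and -0.84 ± 0.16 without Control 001 and 009. AATK, a membrane-bound kinase named for its induction in apoptosis, had 5.195, 4.82, 4.33, 4.15 and 2.76 CPM in CR animals, against 9.61, 7.42, 6.37, 16.5 and 11.5 CPM in Control animals. Its groups were apart too, by -1.27 ± 0.30. GRK4, a kinase that turns off G protein-coupled receptors, had 0.782, 0.725, 0.859, 0.747 and 0.893 CPM in CR animals, against 2.94, 1.65, 1.59, 6.75 and 1.73 CPM in Control animals. GRK4 was under 1 CPM in all 5 CR libraries and above it in all 5 Control libraries, with a log2 difference of -1.87 ± 0.45, and -1.04 ± 0.24 without Control 001 and 009.

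CLEC3B (tetranectin), a plasminogen-binding protein of plasma and matrix, had 6.48, 1.45, 3.61, 4.26 and 7.02 CPM in CR animals, against 28.7, 8.06, 8.39, 40.6 and 16.3 CPM in Control animals. Here the 2 highest values were those of Control 009 and 001, and the log2 difference of -2.16 ± 0.52 was -1.26 ± 0.45 without them. MT1H, a metallothionein that binds zinc and copper, had 20.3, 8.55, 3.61, 8.15 and 20.8 CPM in CR animals, against 11.8, 92.9, 50.3, 98.9 and 51.5 CPM in Control animals. In MT1H, 4 of the 5 Control libraries lay above every CR library, and Control 001 lay among the CR values (-2.32 ± 0.57).

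Among genes higher in CR, MMP10 (stromelysin-2), a secreted protease of the extracellular matrix, had the smallest p. It had 0.782, 2.46, 2.15, 2.73 and 9.34 CPM in CR animals, against 0.945, 0, 0.0708, 0.0402 and 0.234 CPM in Control animals. Counts were low in Control, at 18, 0, 2, 1 and 5 in the same order, against 17 to 230 in CR, and Control 001 lay above CR 004. The fitted log2 difference was 3.84 ± 0.97, and DESeq2 gave an adjusted p of 0.035. TMED6, of a family of cargo receptors between the endoplasmic reticulum and the Golgi, had 6.25, 7.79, 7.91, 4.75 and 5.11 CPM in CR animals, against 4.1998, 2.09, 2.302, 0.964 and 2.67 CPM in Control animals. SLAIN1, which promotes microtubule growth, had 10.99, 10.9, 11.8, 11.4 and 15.9 CPM in CR animals, against 9.66, 5.83, 3.12, 3.62 and 3.98 CPM in Control animals. Both were apart between the groups, TMED6 by 1.38 ± 0.36 and SLAIN1 by 1.22 ± 0.32.

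ZNF846, a zinc finger protein, had 7.13, 11.6, 15.6, 7.29 and 8.402 CPM in CR animals, against 3.99, 6.27, 3.29, 3.66 and 5.53 CPM in Control animals. LRP2BP, which binds the endocytic receptor LRP2 (megalin), had 7.59, 8.15, 6.16, 8.56 and 8.81 CPM in CR animals, against 3.57, 4.65, 4.67, 3.696 and 5.29 CPM in Control animals. Neither gene overlapped between the groups, with differences of 1.14 ± 0.30 and 0.84 ± 0.22. MIB1, the ubiquitin ligase that makes Notch ligands competent to signal, had 56.5, 56.8, 59.7, 75.4 and 39.2 CPM in CR animals, against 24.8, 38.5, 33.2, 31.8 and 39.999 CPM in Control animals. In MIB1 only CR 012 lay among the Control values (0.77 ± 0.21). Without Control 001 and 009 the 6 genes kept their sign, at 1.44 for TMED6, 1.501 for SLAIN1, 1.00 for ZNF846, 0.69 for LRP2BP, 0.63 for MIB1 and 5.18 for MMP10.

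**Figure D2:**
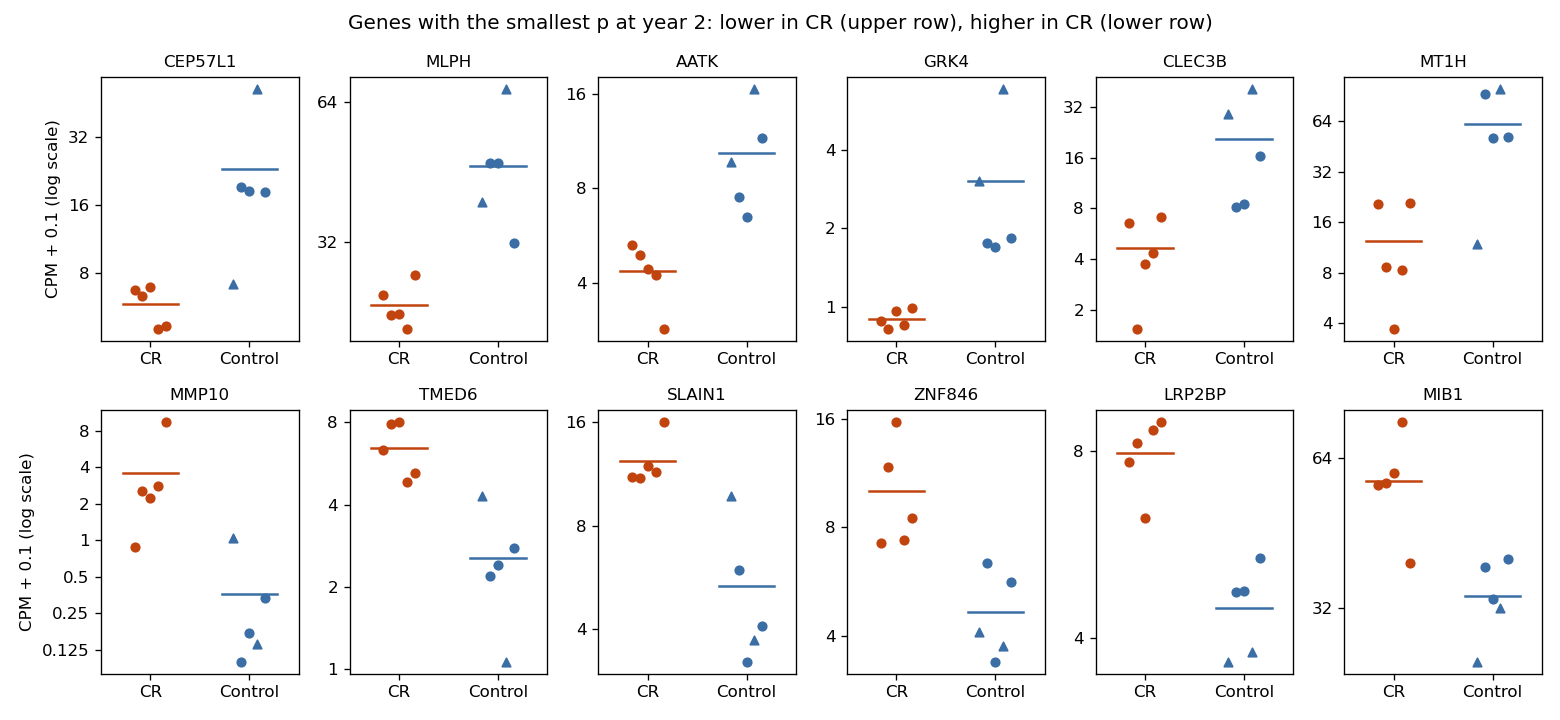
CPM (plus 0.1, log scale) of the 12 genes with the smallest p in each library, CR left and Control right in each panel; triangles mark Control 001 and 009, and lines mark the group means. In the upper row CEP57L1, MLPH, AATK, GRK4 and CLEC3B do not overlap between the groups, and in the lower row TMED6, SLAIN1, ZNF846 and LRP2BP do not.

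Of the genes above, DESeq2 called CEP57L1, MMP10, MLPH (adjusted p = 0.041), CLEC3B (adjusted p = 0.036) and MT1H (adjusted p = 0.036). DESeq2 also called TTLL2, MT1F, which is described with the other metallothioneins, and 4 genes that edgeR did not test. TTLL2, of the tubulin-tyrosine ligase family, had 8.18, 5.25, 5.26, 5.01 and 6.21 CPM in CR animals, against 14.2, 13.1, 9.42, 147 and 23.9 CPM in Control animals. All 5 CR values of TTLL2 lay below all 5 Control values, and the log2 difference of -2.79 ± 0.71 was -1.37 ± 0.30 without Control 001 and 009. GSTT2B, a glutathione transferase, had 178 counts in Control 001, 344 in Control 009 and 0 in each of the other 8 libraries of both groups. DNAH14, a dynein heavy chain, had 0 counts in all 5 CR libraries and 0, 6, 6, 40 and 12 in the Control libraries. CACNA1E, a calcium channel subunit, had 3, 13, 9, 10 and 4 counts in CR and 0 in all 5 Control libraries. LYPD6B, of the Ly-6 family of surface proteins, had 2, 3, 6, 5 and 2 counts in CR animals, against 1, 90, 114, 28 and 31 in Control animals. LYPD6B in Control 001 thus matched CR, and the other 4 Control libraries were higher. Without Control 001 and 009 its log2 difference was -4.31 ± 0.44 with an edgeR adjusted p of 0.036. That fit leaves out the Control library that matched CR. With all 10 libraries GSTT2B, DNAH14, CACNA1E and LYPD6B did not pass edgeR's filter on low counts and were not tested.

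Metallothioneins are small cysteine-rich proteins that store zinc and copper and are induced by metals, glucocorticoids and fasting. MT1F had 1.52, 0.2898, 0.251, 0.299 and 0.649 CPM in CR animals, against 0.787, 22.4, 8.003, 1.85 and 0.843 CPM in Control animals. MT1M had 1.88, 0.725, 0.823, 1.68 and 5.24 CPM in CR animals, against 1.68, 24.4, 12.4, 4.94 and 3.84 CPM in Control animals. MT1A had 2.804, 0.326, 0.179, 0.598 and 1.34 CPM in CR animals, against 3.88, 5.16, 2.94, 1.81 and 1.92 CPM in Control animals. In these 3 genes the groups overlapped, and the highest value was in Control 005. All 7 metallothioneins tested had a log2 difference below 0, with a median of -1.59, and likewise 7 of 7 without Control 001 and 009 (median -1.69). The differences were -3.51 ± 0.97 for MT1F, -2.32 ± 0.57 for MT1H, -2.20 ± 0.73 for MT1M and -1.59 ± 0.64 for MT1A, but -0.09 for MT1E, -0.02 for MT1X and -0.18 for MT2A, the most abundant of them. The 4 with the large differences averaged 0.601 to 12.3 CPM in CR, while MT1E, MT1X and MT2A averaged 220.5, 288 and 426 CPM in CR, against 235, 293 and 482 CPM in Control. Reads may be shared wrongly between metallothionein genes, which are close copies of each other, so their values are uncertain. At year 0, 5 of 7 were lower in the animals assigned to CR. Leaving out 1 library took MT1E up to 0.025 and MT1X up to 0.22. The gene family was looked at after MT1H and MT1F had been seen, so the count of 7 is not independent of them. In the wider list of metallothionein and iron genes, 18 of 33 were higher and 15 lower (median 0.06, without both libraries 0.02).

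Gene lists for liver functions and cell types were described by counts of members and by their median log2 difference. Over all 13345 genes the median was -0.07, and 43.7% were higher in CR; without Control 001 and 009 the median was 0.00 and 49.0% were higher. No member of any of the 58 lists was called by edgeR. Scaling by library totals only moved the median of all genes by -0.19 and turned 19 list medians from above 0 to below it, all of them at 0.17 or less with TMM scaling; scaling by relative log expression turned 0. Of the 57 lists with at least 5 genes tested, 35 had a median that changed sign when some single library was left out.

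**Figure D3:**
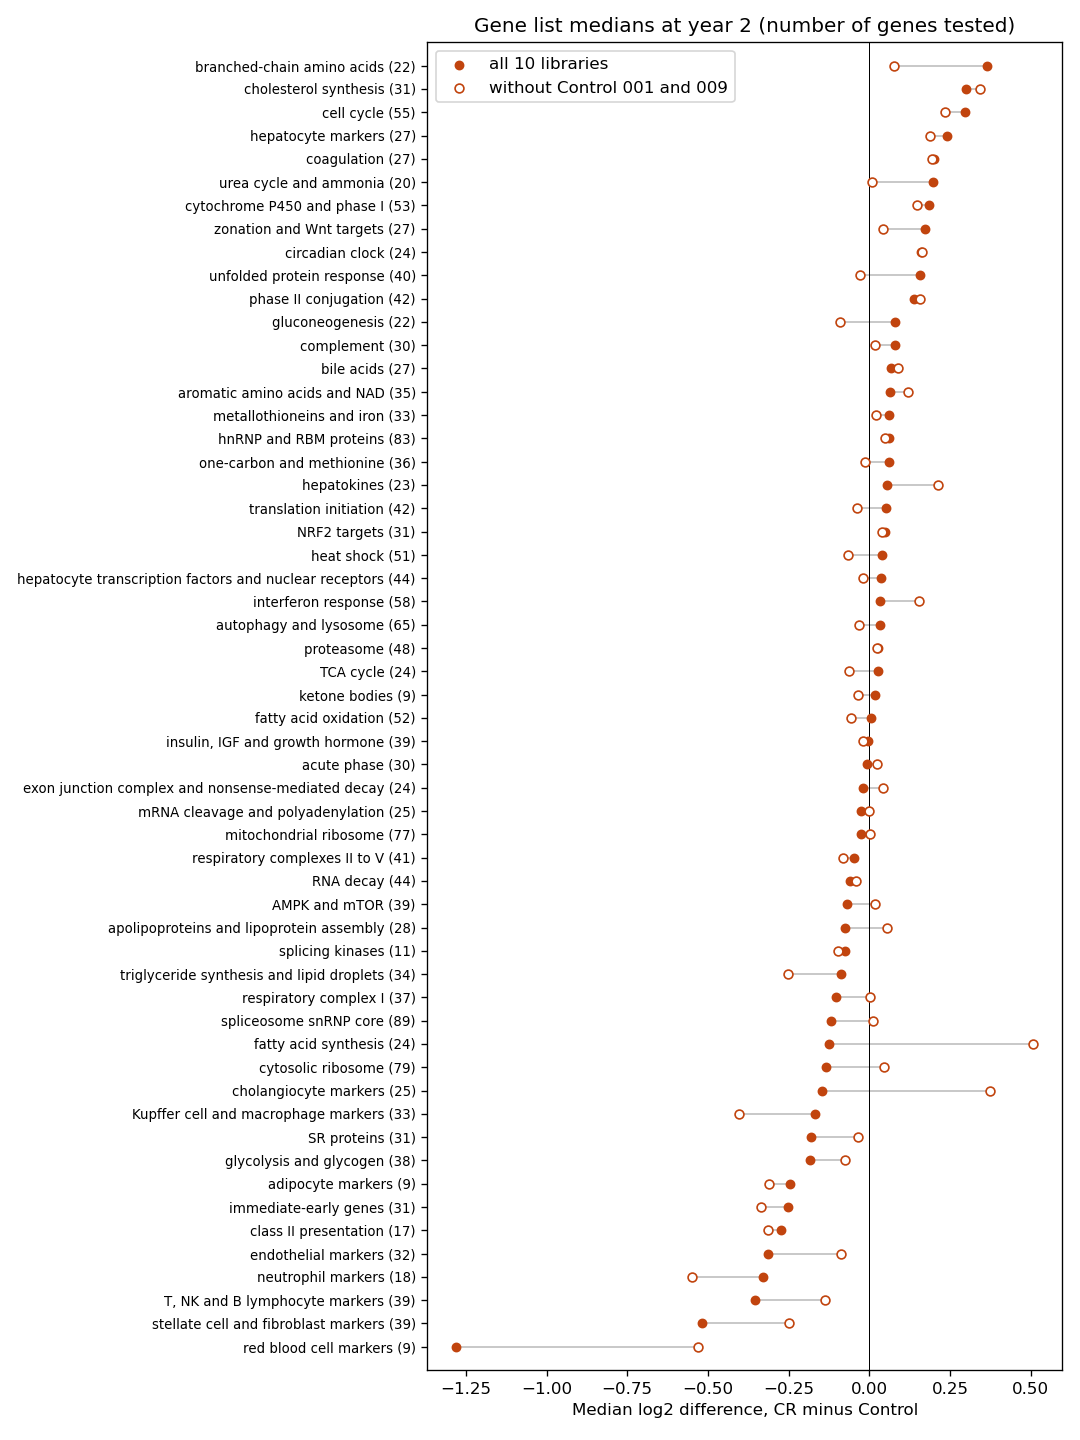
Median log2 difference, CR minus Control, of each gene list with at least 9 genes tested, with all 10 libraries (filled) and without Control 001 and 009 (open). Cholesterol synthesis, cell cycle, hepatocyte and coagulation lists stay above 0 with and without these libraries, whereas fatty acid synthesis, cholangiocyte, cytosolic ribosome and spliceosome lists cross 0.

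Genes of cholesterol synthesis and its control were higher in CR in 22 of 31, with a median of 0.30, and in 26 of 31 without Control 001 and 009 (median 0.34). Leaving out any single library gave medians from 0.23 to 0.46. SC5DL, which desaturates the sterol ring near the end of the pathway, had 798, 588, 594, 634 and 446 CPM in CR animals, against 274, 298, 484, 179 and 567 CPM in Control animals. Control 010 and 006 lay among the CR values and the other 3 Control libraries below them, and the log2 difference was 0.76 ± 0.32, or 0.45 ± 0.25 without Control 001 and 009. STARD4, a carrier of cholesterol between membranes, differed by 1.05 ± 0.50, and SREBF2, the master transcription factor of the pathway, by 0.71 ± 0.34. Without both libraries STARD4 was at 0.69 and SREBF2 at 0.37. At an unadjusted p under 0.05, 2 members were higher in CR, SC5DL among them (1.15% of all genes), and 0 were lower. The groups did not overlap in 1 member, GGPS1, which makes geranylgeranyl diphosphate (0.26 ± 0.16, unadjusted p = 0.13 by edgeR). Of all genes tested, 0.36% were higher in CR without overlap. At year 0 the same list had 4 of 31 higher and a median of -0.26.

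**Figure D4:**
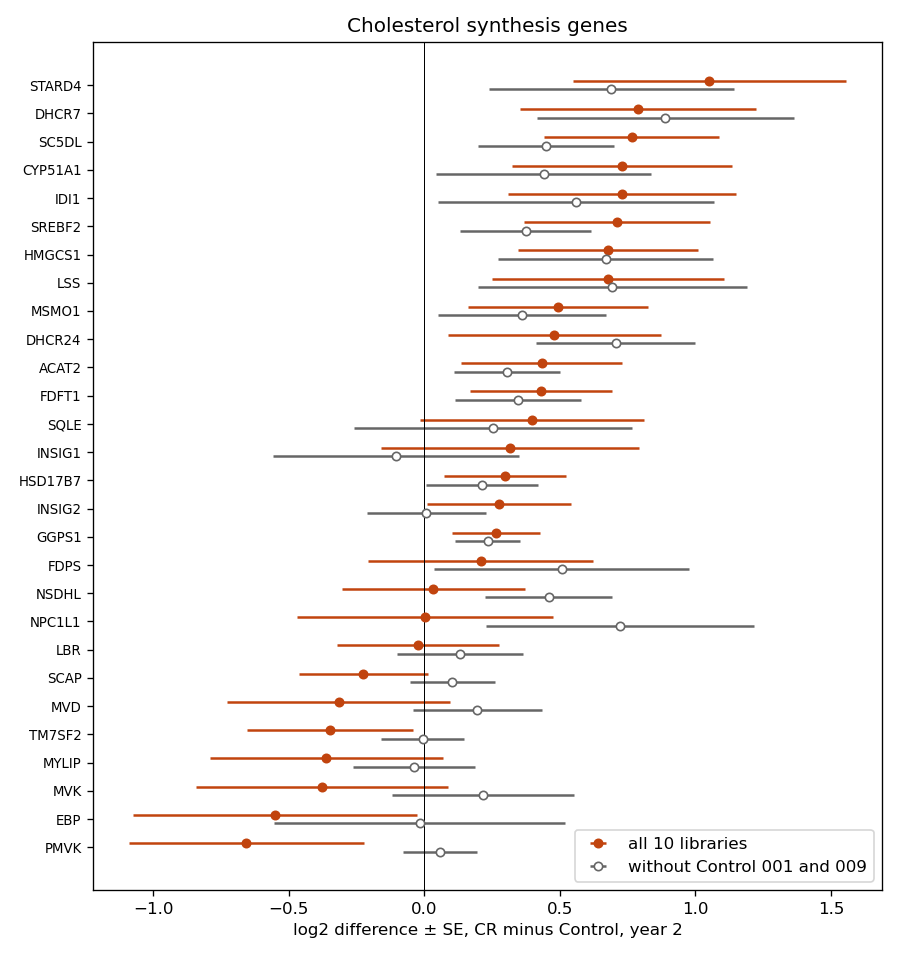
Log2 difference ± SE, CR minus Control, of 28 of the 31 genes of cholesterol synthesis at year 2, with all 10 libraries (filled) and without Control 001 and 009 (open). STARD4, DHCR7 and SC5DL lie above 0 both ways, while PMVK, EBP and MVK, below 0 with all libraries, lie near or above 0 without these 2.

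The median of the fatty acid synthesis genes changed sign when the libraries that stand apart were left out. With all libraries 9 of 24 were higher, with a median of -0.13, and without Control 001 and 009 20 of 24 were higher, with a median of 0.51. Leaving out Control 001 alone gave 0.43. FASN, the fatty acid synthase, had 520.1, 213, 93.8, 156 and 62.4 CPM in CR animals, against 809, 31.7, 62.01, 279 and 64.2 CPM in Control animals. SCD, which makes monounsaturated fatty acids, had 2726, 1506, 709.6, 2778 and 391 CPM in CR animals, against 3894, 137, 994, 356 and 641 CPM in Control animals. Control 001 was thus the highest library in both genes. The log2 difference of FASN was -0.25 ± 0.83, and 2.00 ± 0.67 without Control 001 and 009; that of SCD was 0.43 ± 0.79, and 1.46 ± 0.76. ACACA, which makes malonyl-CoA, was at 0.24 ± 0.42, or 0.59 without both, and SREBF1 at -0.86 ± 0.45, or 0.0052 without both. MLXIPL (ChREBP), the glucose-responsive factor of lipogenesis, was at -1.17 ± 0.51 and 0.05 without both. FADS3, of the fatty acid desaturase family, was at -0.69 ± 0.27, and ELOVL5, which elongates polyunsaturated fatty acids, at 0.72 ± 0.33.

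Triglyceride synthesis and lipid droplet genes had 13 of 34 higher and a median of -0.09. It was 9 of 34 and -0.25 without Control 001 and 009, and without Control 005 alone the median was 0.13. DGAT1, which joins the last fatty acid to a triglyceride, had 21.2, 17.2, 19.4, 16.8 and 19.2 CPM in CR animals, against 37.1, 105, 19.2, 31.1 and 18.7 CPM in Control animals, with Control 005 far above the other 9 libraries (-1.17 ± 0.43). CD36, a fatty acid uptake receptor, had 171, 143, 133, 271 and 114 CPM in CR animals, against 43.3, 83.6, 116, 36.6 and 135 CPM in Control animals. Its 2 lowest values were in Control 009 and 001, and its difference of 1.01 ± 0.39 was 0.58 ± 0.29 without them. FABP1, the liver fatty acid binding protein, had 339, 173, 478, 209 and 91.7 CPM in CR animals, against 1514, 1502, 92.6, 158 and 185 CPM in Control animals; Control 001 and 005 were above all others (-1.42 ± 0.77). HSD17B13, a lipid droplet protein of hepatocytes counted here among zonation genes, had 312, 360.5, 319.7, 316 and 399 CPM in CR animals, against 112, 212, 225, 42.9 and 239.8 CPM in Control animals. The groups did not overlap in HSD17B13, and the difference was 1.04 ± 0.39, or 0.60 ± 0.15 without both libraries.

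Genes of the fasting response did not move one way. Fatty acid oxidation had 26 of 52 genes higher (median 0.01) and ketone bodies 5 of 9 (median 0.02). ACAD11, which handles long-chain and hydroxylated acids, had 399, 386, 344, 397 and 328 CPM in CR animals, against 307, 209, 133, 142 and 268 CPM in Control animals. Its groups did not overlap, with a difference of 0.81 ± 0.27, and 0.87 ± 0.23 without both libraries. CPT1A, which admits fatty acids to mitochondria, was at -0.29 ± 0.91. PPARA was at 0.02 ± 0.41, PPARGC1A at -0.19 ± 0.69, PDK4, which blocks pyruvate oxidation, at 0.34 ± 0.39 and FGF21, the fasting hormone of the liver, at 0.50 ± 0.71. CPT1A ranged from 88.5 to 665 CPM in CR and from 18.4 to 844 CPM in Control, so that animals of a group differed by more than the groups did. In CPT1A, PPARA, PPARGC1A, PDK4 and FGF21 the standard error exceeded the size of the difference. In the same order they were at -0.99, -0.30, -0.79, -0.07 and 0.06 without Control 001 and 009.

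Gluconeogenesis had 15 of 22 genes higher (median 0.08, without both libraries -0.09). PCK1, its first committed enzyme, was at 0.02 ± 0.56 and G6PC, which releases free glucose, at 0.43 ± 0.49; without both libraries they were at -0.39 and -0.11. The growth hormone and insulin axis had 19 of 39 genes higher and a median of 0.00. IGF1 was at 0.38 ± 0.34, the growth hormone receptor GHR at 0.59 ± 0.43, and the binding proteins IGFBP1 at -0.25 ± 0.74 and IGFBP2 at 0.30 ± 0.54. Without both libraries these 4 were at 0.19, 0.16, -0.77 and 0.16 in that order. IGFBP1 had 752, 769, 642, 859 and 2902 CPM in CR animals, against 263, 198, 2766, 736 and 3103 CPM in Control animals. CR 012 and Control 006 and 010 were far above the other 7 libraries. Among nutrient sensors, SIRT1, a deacetylase that depends on NAD, was at 0.06 ± 0.30, SIRT3, its mitochondrial relative, at -0.34 ± 0.23, and NAMPT, which makes NAD from nicotinamide, at 0.69 ± 0.48. Without both libraries they were at -0.02, 0.04 and 0.17. FOXO1 was at -0.44 ± 0.38 and FOXO3 at 0.12 ± 0.36, both factors restrained by insulin. TXNIP, a glucose-induced inhibitor of thioredoxin, was at -0.04 ± 0.53 (-0.53 without both), and AMPK and mTOR genes had 19 of 39 higher (median -0.07).

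Breakdown of branched-chain amino acids had 18 of 22 genes higher and a median of 0.37, the highest of the lists of liver functions with all 10 libraries. Without Control 001 and 009 it was 15 of 22, with a median of 0.08. PPM1K, the phosphatase that activates the branched-chain ketoacid dehydrogenase, had 54.8, 86.99, 60.2, 147 and 112 CPM in CR animals, against 27.3, 56.2, 70.9, 16.8 and 47.02 CPM in Control animals. Its 2 lowest libraries were Control 009 and 001, and its difference was 1.08 ± 0.39, or 0.67 ± 0.32 without them. ACADSB, which oxidizes a product of isoleucine, had 2789, 2896, 2444, 2589.5 and 2455 CPM in CR animals, against 1269.6, 2272, 2381, 1377 and 2349 CPM in Control animals; the groups did not overlap, but Control 005, 006 and 010 were close to CR, and the difference was 0.45 ± 0.27 with all libraries and 0.18 without the other two. AUH, of leucine breakdown, was at 0.52 ± 0.19, and BCAT2, the transaminase of the first step outside the liver, at -1.04 ± 0.45, or -0.23 ± 0.35 without both libraries. Urea cycle genes had 15 of 20 higher (median 0.20, without both libraries 0.01), and CPS1, the first enzyme of the cycle, was at 0.60 ± 0.45, or 0.15 without both.

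Drug-metabolizing genes were higher more often than lower with and without Control 001 and 009. Cytochrome P450 and other phase I genes had 34 of 53 higher (median 0.18) and 39 of 53 without both (median 0.15), but without Control 009 alone the median was 0.057. FMO5, a flavin monooxygenase, had 552, 464, 399, 488 and 449.9 CPM in CR animals, against 265, 250.1, 331, 308 and 426 CPM in Control animals, where only Control 010 overlapped CR (0.58 ± 0.23), and FMO4, of the same family, was at 0.64 ± 0.30. Conjugating (phase II) genes had 29 of 42 higher (median 0.14, without both 0.16, without Control 009 alone 0.077). SULT2A1, which sulfates bile acids and steroids, was at 0.83 ± 0.33. In the other direction, GSTA1 and GSTA5, glutathione transferases, were at -0.81 ± 0.30 and -0.91 ± 0.38; GSTA genes are near-identical copies with uncertain counts. CYP7A1, the rate-limiting enzyme of bile acid synthesis, ranged from 4.32 to 73.1 CPM in CR and from 1.42 to 39.4 CPM in Control (0.87 ± 0.87; 0.25 without both).

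Secreted products of hepatocytes were examined beside the hepatocyte markers. Of 27 hepatocyte markers 18 were higher (median 0.24), and 23 of 27 without Control 001 and 009 (median 0.19). Leaving out Control 009 alone gave a median of 0.039, and leaving out Control 001 alone 0.46. Their summed level was 307534 to 359832 CPM in CR, with a median of 329482, against 88290 to 468235 CPM in Control, with a median of 284246. Control 009 was the lowest library and Control 001 the highest. F9, coagulation factor IX, had 653, 613, 559, 739 and 539 CPM in CR animals, against 465, 513, 514, 129.96 and 404 CPM in Control animals, apart between the groups by 0.61 ± 0.34, or 0.38 without both. HRG, a plasma glycoprotein of coagulation and immunity, had 7729, 5598, 4121, 7399.8 and 5526 CPM in CR animals, against 3141, 2318, 3073, 2059 and 5421 CPM in Control animals, where only Control 010 overlapped CR (0.92 ± 0.33). Coagulation genes had 20 of 27 higher (median 0.20, without both 0.20); leaving out Control 009 alone gave a median of -0.03 and Control 001 alone 0.40. F7, coagulation factor VII, was at -0.65 ± 0.37. The part of the hepatocyte markers in these values was not tested.

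ALB was at 0.63 ± 0.39 on the log2 scale, and 0.40 without both libraries. FETUB, a liver-secreted relative of fetuin-A counted among hepatokines, had 475, 449, 265, 555 and 359.95 CPM in CR animals, against 367, 150.1, 270.2, 111 and 240.04 CPM in Control animals and a difference of 0.89 ± 0.34. The acute phase list, plasma proteins that the liver makes in inflammation, had 15 of 30 genes higher and a median of -0.01. Single libraries set its extremes. SAA2, a serum amyloid A, had 78.3, 55.5, 100.4, 109.5 and 77.9 CPM in CR animals, against 13545, 328, 331, 104 and 66.6 CPM in Control animals. One library, Control 001, thus stood above all others, and the difference of -5.09 ± 1.41 was -1.52 ± 0.44 without both libraries. ITIH4, an acute phase protein of the inter-alpha-trypsin inhibitor family, was at 18541 CPM in Control 001 and between 3889 and 6462 CPM in the other 9 libraries (-0.60 ± 0.43; 0.03 without both).

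Circadian genes, which time hepatic metabolism to the day, had 15 of 24 higher and a median of 0.16 with and without Control 001 and 009, but -0.08 with scaling by library totals only and -0.01 without CR 008. The hour of biopsy is not in the labels. RORA, an activator of the clock gene BMAL1, had 112, 109, 109, 129 and 145 CPM in CR animals, against 24.8, 104, 70.2, 53.7 and 99.4 CPM in Control animals; the groups did not overlap and differed by 0.78 ± 0.33, or 0.41 without both libraries. HLF, a clock output factor, had 162, 184, 159, 215 and 169 CPM in CR animals, against 73.5, 128, 110.2, 66.05 and 177 CPM in Control animals (0.68 ± 0.28; 0.37 without both). BHLHE40, a repressor within the clock, was at 0.60 ± 0.27, CRY2 at 0.72 ± 0.40, PER2 at 0.12 ± 0.21 and PER1 at -0.50 ± 0.50, the last with 298 CPM in Control 009 and 29.98 to 127 CPM in the other 9 libraries.

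The series is titled for RNA processing, so the lists of its machinery are each given. Core spliceosome genes had 32 of 89 higher and a median of -0.12, and without Control 001 and 009 50 of 89 and 0.01. SR proteins, which select exons, had 9 of 31 higher (median -0.18), and 10 of 31 without both (median -0.04). Splicing kinases had 5 of 11 higher (median -0.08), and 0 of 11 without both (median -0.10). The hnRNP and RBM proteins had 51 of 83 higher (median 0.06, but -0.09 with scaling by library totals only), and 50 of 83 without both. At year 0, before the diets, the spliceosome list had 8 of 89 higher (median -0.17) and SR proteins 5 of 31 (median -0.15). Splicing kinases had 4 of 11 higher at that time (median -0.04), and hnRNP and RBM proteins 25 of 82 (median -0.08). Exon junction and nonsense-mediated decay genes had 11 of 24 higher (median -0.02, without both 0.04). Cleavage and polyadenylation genes had 10 of 25 higher (median -0.02, without both -0.001), and RNA decay genes 21 of 44 (median -0.06, without both -0.04). Translation initiation genes had 28 of 42 higher (median 0.05), and 16 of 42 without both (median -0.04). Cytosolic ribosome genes had 20 of 79 higher (median -0.14), and 65 of 79 without both (median 0.04). In the same order, these medians were -0.08, -0.08, -0.03, -0.03 and -0.22 at year 0, with 0 of 79 ribosome genes higher.

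LUC7L, a component of the U1 particle that recognises the start of introns, had 14.02, 9.96, 11.8, 10.3 and 14.7 CPM in CR animals, against 40.4, 9.98, 12.4, 104 and 23.6 CPM in Control animals. SNRNP70, a core protein of that particle, had 155, 128, 128, 102 and 134 CPM in CR animals, against 415, 99.3, 116, 500.2 and 145 CPM in Control animals. In both, the 2 high values were those of Control 009 and 001, and the differences of -1.65 ± 0.55 and -0.98 ± 0.44 were -0.33 and 0.11 without them. CLK1 and CLK2, kinases that release SR proteins from nuclear stores, were highest in Control 009 at 236 and 111 CPM, against at most 95.8 and 40.2 CPM in the other 9 libraries; they differed by -0.68 ± 0.40 and -0.96 ± 0.43, and by -0.21 and -0.03 without both libraries. TRA2A, an SR-like activator of exons, was at -0.64 ± 0.28, and -0.16 without both. RNPC3, a protein of the minor spliceosome, had 35.6, 40.4, 39.3, 34.9 and 28.5 CPM in CR animals, against 16.96, 29.6, 17.3, 10.5 and 31.5 CPM in Control animals and differed by 0.75 ± 0.28, or 0.46 without both. In RNPC3 only CR 012 lay below any Control library.

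Markers of cells other than hepatocytes were mostly below 0. Stellate cell and fibroblast markers had 31 of 39 lower (median -0.52), and 30 of 39 without Control 001 and 009 (median -0.25). Their summed level was 1223 to 1587 CPM in CR and 1148 to 3391 CPM in Control, with Control 009 the highest. TIMP1, an inhibitor of matrix proteases, had 11.4, 11.4, 16.8, 7.81 and 13.96 CPM in CR animals, against 22.4, 15.1, 18.7, 37.2 and 18.7 CPM in Control animals. Only Control 005 lay among the CR values of TIMP1, and the difference was -0.87 ± 0.28, or -0.50 without both. COL4A2, a basement membrane collagen, was at -0.73 ± 0.25 and -0.71, and DPT (dermatopontin), a matrix protein, at -1.22 ± 0.43 and -0.80. Endothelial markers had 24 of 32 lower (median -0.31; -0.09 without both). VWF, the endothelial clotting protein, had 16.2, 23.7, 18.4, 22.2 and 22.000 CPM in CR animals, against 28.8, 26.5, 29.8, 45.4 and 24.8 CPM in Control animals, where the groups did not overlap (-0.60 ± 0.21; -0.40 without both). EGFL7, an endothelial matrix protein, and STAB1, a scavenger receptor of liver sinusoids, were highest in Control 001 and 009, at 82.0 and 82.0 CPM and at 579 and 886 CPM, against at most 21.4 and 231 CPM elsewhere. They differed by -1.49 ± 0.52 and -1.25 ± 0.50, and by -0.09 and -0.05 without both.

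Macrophage markers had 27 of 33 lower (median -0.17; -0.40 without Control 001 and 009, and 0.06 without Control 006 alone). Their summed level was 1078 to 2339 CPM in CR and 1550 to 3179 CPM in Control, with CR 004 and 007 the 2 lowest libraries, although the median of the sums was higher in CR (2270 CPM) than in Control (2069 CPM). AIF1, a calcium-binding protein of macrophages, had 8.23, 11.5, 19.4, 15.7 and 17.7 CPM in CR animals, against 33.4, 17.4, 29.9, 26.7 and 12.5 CPM in Control animals (-0.72 ± 0.31; -0.45 without both). FCGR1A, a high-affinity receptor for IgG, was at -0.92 ± 0.40 and C1QA, a complement subunit made by Kupffer cells, at -0.64 ± 0.36, or -0.26 without both. Lymphocyte markers had 32 of 39 lower (median -0.35; -0.14 without both, and -0.02 without Control 009 alone). CD7, a surface protein of T and NK cells, had 0.184, 0.254, 0.67998, 0.262 and 0.69003 CPM in CR animals, against 0.735, 1.18, 1.35, 1.53 and 0.796 CPM in Control animals; the groups did not overlap (-1.42 ± 0.45). In the other direction, THEMIS, a T cell signalling protein, had 2.48, 7.75, 4.87, 6.88 and 4.87 CPM in CR animals, against 1.47, 1.96, 2.27, 1.81 and 4.31 CPM in Control animals (1.19 ± 0.38). Neutrophil markers had 14 of 18 lower (median -0.33; -0.55 without both, and 0.046 without Control 006 alone), among them LTF (lactoferrin) at -1.88 ± 0.59, or -1.19 without both. Class II presentation genes had 10 of 17 lower (median -0.27), with MAMU-DOB at -1.73 ± 0.65. Red blood cell markers had 9 of 9 lower (median -1.28), and 8 of 9 without both (median -0.53); HBA1, a globin, was at 317 CPM in Control 001 and at most 55.1 CPM in the other 9 libraries, and SLC4A1, an anion exchanger of red cells, was at -1.89 ± 0.68. At an unadjusted p under 0.05, 9 of 39 stellate, 10 of 32 endothelial, 6 of 39 lymphocyte and 5 of 9 red blood cell markers were lower. Macrophage markers had 2 of 33, neutrophil markers 1 of 18, class II genes 1 of 17 and cholangiocyte markers 0 of 25, beside 5.88% of all genes. These counts are with all 10 libraries. Of all genes lower at this p, 69.0% had their highest value in Control 009.

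**Figure D5:**
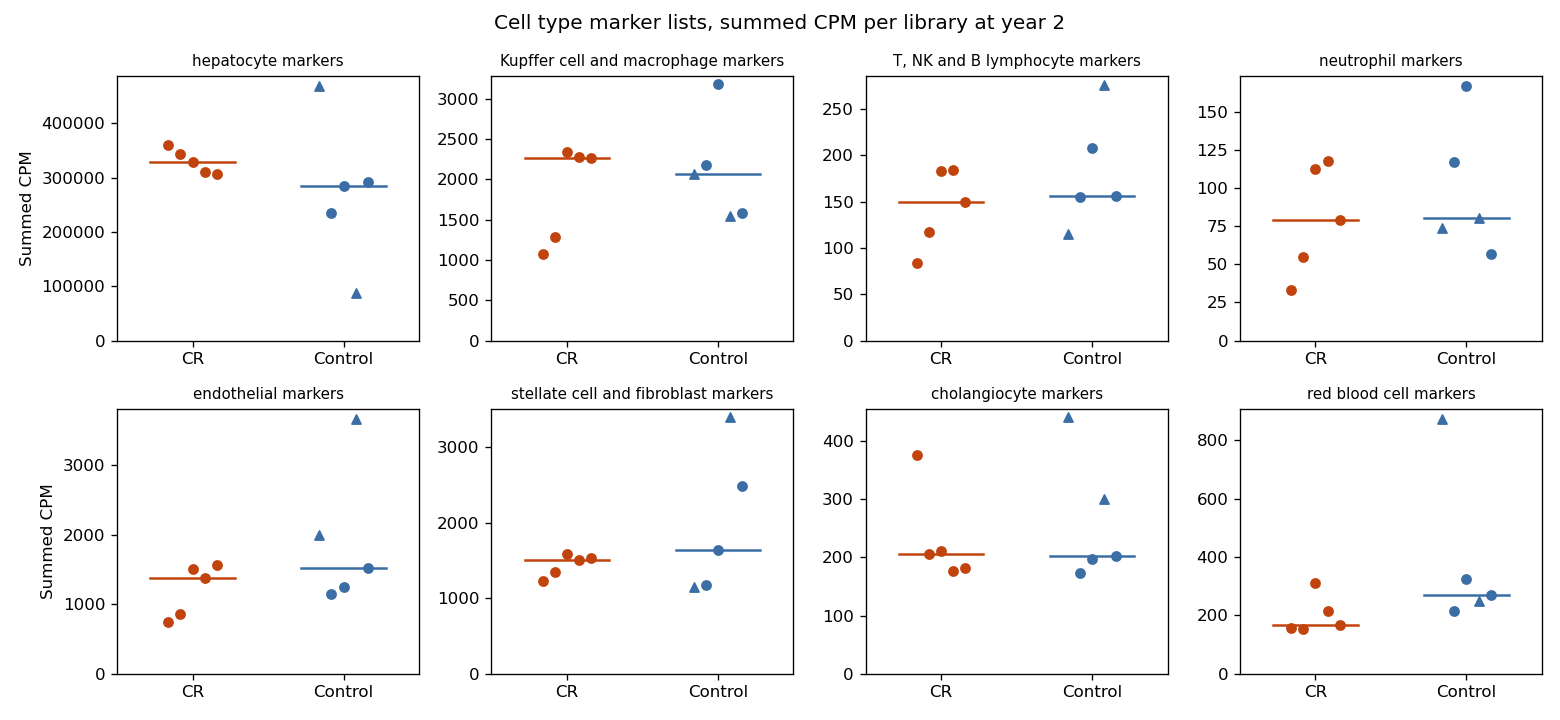
Summed CPM of 8 cell type marker lists in each year 2 library, CR left and Control right; triangles mark Control 001 and 009, and lines mark medians. The 5 CR libraries lie within the range of the 5 Control libraries for hepatocyte markers, and Control 009 is the highest library for endothelial and stellate cell markers and the lowest for hepatocyte markers.

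Interferon response genes had 30 of 58 higher (median 0.03), immediate-early genes, which respond within minutes to stress such as tissue handling, had 22 of 31 lower (median -0.25; -0.34 without Control 001 and 009, and 0.03 without Control 010 alone), and cell cycle genes had 36 of 55 higher (median 0.30; 0.23 without both). Proteasome genes had a median of 0.03 (0.02 without both). Unfolded protein response genes had 26 of 40 higher (median 0.16), but 17 of 40 without both (median -0.03), and heat shock genes had 28 of 51 higher (median 0.04), but 13 of 51 without both (median -0.06). Cholangiocyte markers had 12 of 25 higher (median -0.15; 0.37 without both), and adipocyte markers 2 of 9 (median -0.25).

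The same animals at year 0 give the differences that were there before the diets. At that time the edgeR test passed 32 of 13244 genes (0.242%), with 28 higher and 4 lower in the animals assigned to CR, with a median size of 0.82. The count was 340 without Control 001, 93 without CR 004 and 44 without Control 009, and 3 or 4 without any one of the other 7 animals. At year 2, 12 of the 32 had the same sign, and 3 had an unadjusted p under 0.05. GSTA5 was at -0.79 ± 0.13 at year 0 and -0.91 ± 0.38 at year 2. Macrophage markers had a median of 0.67 at year 0 beside -0.17 at year 2, class II presentation genes 0.91 beside -0.27, neutrophil markers 0.64 beside -0.33, lymphocyte markers 0.48 beside -0.35 and interferon response genes 0.51 beside 0.03. The red blood cell markers were lower at both times, at -0.85 and -1.28, and cholesterol synthesis genes had -0.26 and 0.30. Cell cycle genes were higher at both times, with medians of 0.28 at year 0 (38 of 50 higher) and 0.30 at year 2 (36 of 55 higher). The diet difference at year 2 minus that at year 0, tested in 1 fit of all 20 libraries, was called in 0 of 13730 genes (0%) by edgeR, with 1364 (9.93%) at an unadjusted p under 0.05 and 30 called by DESeq2.

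The use of alternative transcripts (how a gene's RNA divides between them) was tested in 1072 genes with 2405 transcripts. edgeR called 0 genes (0%), and 29 had an unadjusted p under 0.05. COL18A1, a basement membrane collagen, had the smallest p (adjusted p = 0.112). Its second listed transcript took 0.419%, 0.0491%, 0.681%, 0.3599% and 0.327% in CR, against 21.8%, 0.616%, 1.24%, 72.2% and 4.44% in Control. The share was at most 0.681% in CR, and it was high in Control 001 and 009, the libraries that stand apart. Leaving out Control 005 or 006 put COL18A1 past the threshold (adjusted p = 0.0298 and 0.0496), and without Control 001 and 009 it did not pass the filter. ALDH2, which oxidizes acetaldehyde, had a first listed transcript at 0.0789%, 0.182%, 0.154%, 0.253% and 0.6697% in CR, against 30.6%, 0.267%, 0.362%, 50.7% and 0% in Control, and CCT4, a chaperonin subunit, one at 0%, 0.961%, 1.56%, 1.56% and 0% in CR, against 54.4%, 1.06%, 0.892%, 52.6% and 2.83% in Control. Both shares were again high in Control 001 and 009 only. SERPINF2, an inhibitor of plasmin, had a first listed transcript at 2.03%, 1.07%, 2.005%, 1.61% and 5.49% in CR, against 16.3%, 1.78%, 1.95%, 71.9% and 6.73% in Control. ZNF384, a zinc finger protein, had a second listed transcript at 1.64%, 4.07%, 3.28%, 0% and 0% in CR, against 26.2%, 0%, 11.9%, 44.002% and 15.7% in Control; here 4 of the 5 Control libraries lay above every CR library. PCCA, a carboxylase subunit, had a second listed transcript at 0%, 0%, 0%, 0% and 0.461% in CR, against 67.2%, 0.773%, 0%, 10.7% and 2.199% in Control, with Control 001 the highest and Control 009 next.

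MYO1C, a myosin of the membrane skeleton, showed the opposite arrangement and was picked after its values were seen. Its first listed transcript took 14.1%, 30.3%, 13.8%, 12.1% and 23.2% in CR, against 5.61%, 0%, 0%, 0% and 0% in Control. All 5 CR libraries lay above all 5 Control libraries, 4 of which had none. With all libraries its adjusted p was 1.00, without Control 001 it was 2.99e-04, and without Control 001 and 009 it was 0.00469 by edgeR's Simes test. Both of these calls leave out Control 001, the only Control library with this transcript. The exon structure of these transcripts is not used here.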

How the data were processed

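RNA-seq was done on total RNA of liver biopsies with TruSeq libraries and paired-end reads on an Illumina HiSeq2000, per the labels' protocols. Deposited by the authors were expected counts of genes and of transcripts (estimated counts, not normalized) and TPM of genes, scaled by the authors within each library. Per the submitters' processing notes, the tools were STAR, RSEM and DESeq2 and the build was Mmul_8.0.1 (rheMac8), with no version or role for any tool; what annotation, trimming and strand option were used is not given in the sources used here. Of the gene values at year 2, 4.41% were not whole, since reads shared between features were divided, so copies of a gene family and overlapping genes are uncertain. Symbols are those of the tables, and 15272 of 18288 matched a list of gene names. The authors' table of fold changes names no comparison and was not used here.

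Estimated counts were rounded, filtered with filterByExpr and scaled by TMM, and the 10 year 2 libraries were tested with the robust quasi-likelihood F test of edgeR 4.0.16 (R 4.3.3), two-sided; p-values were adjusted by the Benjamini-Hochberg method and called under 0.05. Differences are log2, CR minus Control; CPM values use TMM-scaled library sizes. Transcript usage used diffSpliceDGE with transcripts that reached 10 counts in 5 or more libraries and took 5% or more of their gene on average. Year 0 was tested alike, and the change in the diet difference in all 20 libraries. The diets share no animal, and labels do not say more of the animals, so p-values measure the spread between 5 animals a group. Alternatives were DESeq2 1.42.0, limma 3.58.1 (voom with a weight per library; log2(TPM + 1) and log2(TPM + 0.1)), other scalings and filters, and leaving out each library, or Control 001 and 009 together. Methods were tested on simulated data with a dispersion (variation between animals beyond counting) of 0.05, the same in both groups, and no library set apart. The common dispersion of the year 2 libraries was 0.173, so the simulated data were less variable than these. The simulation does not show which differences could be missed here. Library totals of 15421789 to 30204971 counts limit the precision of genes near 1 CPM.

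The comparison and the gene lists were chosen with earlier results of these data known. Genes named are the 6 with the smallest p in each direction at a mean of at least 1 CPM, a panel of 28 nutrient-response genes, up to 4 members with the smallest p in each list described, and the 6 with the smallest p in transcript usage; others are said to be chosen after their values were seen, as are the genes called under an alternative. A few genes that these rules name are not reported here.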

Additional observations from a re-analysis of the deposited data

Results flagged for a closer look

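Within a group, 28 values of 1 library lay far from the other 4 by Dixon's criterion, out of 218 groups of 5 tested. The criterion flags about 1 group in 20 by chance where values are normally distributed. CPM values need not be, and many of these genes were named for their values in these data. The count of 28 therefore cannot be set against that rate. Of these, 8 were in Control 001, 7 in Control 009, 2 in Control 005, 1 in Control 010, 6 in CR 012, 2 in CR 004 and 2 in CR 007.

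In CR 012, IGFBP1 was at 2902 CPM against 642 to 859 CPM in the other 4 CR libraries, PDK4 at 1089 against 587 to 658, SIRT1 at 68.0 against 37.8 to 45.8, SLAIN1 at 15.9 against 10.9 to 11.8, MMP10 at 9.34 against 0.782 to 2.73 and MT1M at 5.24 against 0.725 to 1.88. In CR 004 the cholangiocyte markers summed to 376 CPM, against 177 to 212, and LTF was at 1.29 CPM, against 0.299 to 0.573. CR 007 was the low library in BCAT2 (0.869 CPM) and HBA1 (14.6 CPM).

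In Control 001, SAA2 was at 13545 CPM against 66.6 to 331 CPM in the other 4 Control libraries, ITIH4 at 18541, SCD at 3894, ACACA at 61.8, HBA1 at 317, LTF at 5.83 and MMP10 at 0.945 CPM, and the red blood cell markers summed to 871 CPM. In Control 009, CLK1 was at 236, CLK2 at 111, CEP57L1 at 52.1, TTLL2 at 147, GRK4 at 6.75 and VWF at 45.4 CPM, all high, and F9 at 129.96 CPM, low. In Control 005, PPARA was at 544 and DGAT1 at 105 CPM, and in Control 010 THEMIS was at 4.31 CPM.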

How the results depend on the processing

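With all 10 libraries, 0 genes were called at year 2 under every alternative run except DESeq2 (11 calls, 2 higher and 9 lower). Without Control 001 and 009 together, 2 genes were called, both lower. Leaving out any single library gave 0 calls. For transcript usage, 1 gene was called without these libraries, and leaving out 1 library gave 0 to 1. The diet difference at year 2 minus that at year 0 gave 30 calls by DESeq2, 1 without Control 001 and 009 and 0 to 1 without 1 library; with the animal as a replicate block it gave 0. No paired analysis was possible between the diets at year 2 because no animal is in both. The 32 calls at year 0 became 761 by DESeq2, 242 by voom with library weights and 0 in 1 fit of all 20 libraries, and 3 to 340 without 1 library.

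The genes given here changed sign; the cause was not tested. With library totals only, FOXO3 was at -0.063, PCK1 -0.21, PER2 -0.10, PPARA -0.22 and SIRT1 -0.19. On log2(TPM + 1), with or without a filter, CPT1A was at 0.38, FASN 0.25, FOXO3 -0.012, IGFBP1 0.22 and PPARGC1A 0.25; on log2(TPM + 0.1) the values were 0.43, 0.28, -0.013, 0.22 and 0.28, and FGF21 was at -0.11. With library weights, FASN was at 1.34, FGF21 -0.75, FOXO3 -0.11, PCK1 -0.15, PDK4 -0.11, SIRT1 -0.15, SIRT3 0.0073 and FABP1 0.0025. Without Control 001 and 009, FASN was at 2.00, G6PC -0.11, ITIH4 0.028, MLXIPL 0.052, PCK1 -0.39, PDK4 -0.068, PER1 0.17, PPARA -0.30, SIRT1 -0.021, SIRT3 0.043, SNRNP70 0.11 and SREBF1 0.0052.

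Without 1 library each, the values that crossed 0 ranged from -0.034 to 0.64 for ACACA, -1.03 to 0.51 for CPT1A, -0.92 to 0.94 for FASN, -0.13 to 0.31 for FOXO3, -0.90 to 0.25 for IGFBP1, -0.76 to 0.025 for ITIH4, -0.26 to 0.52 for PCK1, -0.74 to 0.17 for PER1, -0.0032 to 0.22 for PER2, -0.18 to 0.56 for PPARA, -0.55 to 0.75 for PPARGC1A, -0.11 to 0.20 for SIRT1 and -0.49 to 0.29 for TXNIP.

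Depth limits genes near 1 CPM.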
